A study of Saccharomyces cerevisiae x Saccharomyces kudriavzevii and Saccharomyces cerevisiae with 12 samples.

Results

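The genes described here encode the proteasome of Saccharomyces cerevisiae and its transcriptional activator RPN4. They were taken by their systematic names and number 33 of the 6178 open reading frames (ORFs) on the arrays: 7 subunits of the alpha ring, 7 of the beta ring, 6 base ATPases, 4 other base subunits, 8 lid subunits and RPN4. The ratios of these genes were measured in wine yeasts, the S. cerevisiae × S. kudriavzevii hybrids VIN7 and Lalvin W27, each set against the S. cerevisiae wine strain Lalvin T73. Cells came from fermentations of Tempranillo must at 12 °C or 28 °C and were taken at the onset of the stationary phase. Each hybrid and temperature had 3 two-colour arrays, named A, B and C, which gave 12 arrays in 4 groups (VIN7 at 12 °C, W27 at 12 °C, VIN7 at 28 °C and W27 at 28 °C).

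Per the paper, each hybrid carries a diploid S. cerevisiae and a haploid S. kudriavzevii genome. VIN7 is close to a regular allotriploid, whereas W27 has several chimeric chromosomes. The probes were S. cerevisiae ORFs, so 1 ratio does not separate the transcripts of the parental alleles. The paper used heterologous conditions meant to let the S. kudriavzevii genome hybridize. Whether its transcripts bound as well as those of S. cerevisiae was not tested here, which limits every ratio of hybrid over T73. The methods name T73 RNA of the same temperature as the partner on each array, so both hybrids at a temperature share that control strain. The labels call A, B and C biological replicates and the methods give 2 independent fermentations per condition, so the spread between arrays may be partly technical. The source label of W27 at 28 °C reads 12 °C, but its titles and descriptions read 28 °C and were followed.

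The proteasome is the protease of the cytosol and nucleus that degrades proteins marked with ubiquitin. Its core particle is a barrel of stacked rings, in which alpha subunits form the outer gates and beta subunits the inner rings that hold the active sites. The regulatory particle caps the barrel: a base with a ring of ATPases unfolds substrates and threads them into the core, and a lid removes the ubiquitin chains. In yeast, RPN4 is a short-lived zinc finger factor that activates the subunit genes and is itself degraded by the proteasome, which closes a feedback loop.

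All ratios below are log2 values of hybrid over T73, so that a value of −1 stands for a level 2-fold lower in the hybrid. The direction is likely rather than stated by the deposited table. It rests on the dyes in the labels, Cy3 for the hybrid and Cy5 for T73 on every array, with no dye swap. The arrays held values for 5815 to 6178 ORFs, with array medians between −0.14 and 0.30 and standard deviations (SDs) between 0.60 and 1.59. All 33 genes had a value on all 12 arrays. Of the 66 pairs of arrays, 4 had a correlation across ORFs under −0.3. Each of them paired replicate C of VIN7 at 28 °C with an array at 12 °C, with r between −0.70 and −0.38. Replicate C of VIN7 at 28 °C had an r of 0.06 with each of A and B of its own group. Its r with replicate C of VIN7 at 12 °C was 0.10, and with its remaining partner arrays r lay between −0.26 and −0.06. Other arrays within a group also agreed weakly at 28 °C, with an r of 0.17 for VIN7 A and B and between 0.10 and 0.25 in W27. At 12 °C r within a group lay between 0.22 and 0.59. Because of the negative correlations, the direction of replicate C of VIN7 at 28 °C is not settled. Means, medians and counts over the 3 VIN7 arrays at 28 °C thus stand beside those with this array turned or left out. Values on single arrays are given as deposited. Each array was normalized by itself, so that a change in the total mRNA of a strain would not show in these ratios.

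On 11 of the 12 arrays the middle of the 33 genes lay below 0. At 12 °C their median was −1.15, −0.94 and −0.19 on VIN7 arrays A, B and C. The same median was −0.32, −0.86 and −1.62 on W27 arrays A, B and C at 12 °C. At 28 °C it was −0.22, −0.32 and 1.65 on the VIN7 arrays and −0.69, −0.38 and −0.86 on those of W27. The exception was replicate C of VIN7 at 28 °C, the array of unsettled direction, where 32 of the 33 genes were above 0.

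The median of all ORFs lay between −0.14 and 0.30. It was farthest from 0 on array B of W27 at 28 °C (0.30) and array B of VIN7 at 28 °C (0.21). The 33 genes were set apart from the median of all ORFs on each array by a different distance. The share of ORFs lying below the median of the 33 genes was 14.8%, 23.7% and 38.2% on VIN7 arrays A, B and C at 12 °C. It was 24.5%, 19.7% and 10.2% for W27 at 12 °C. At 28 °C it was 34.6%, 33.6% and 85.7% for VIN7, and 16.5%, 26.4% and 13.4% for W27. The median of the 33 genes thus lay in the lower 38.2% of ORFs on each of the 11 arrays, and among the upper ORFs on replicate C of VIN7 at 28 °C.

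**Figure D1:**
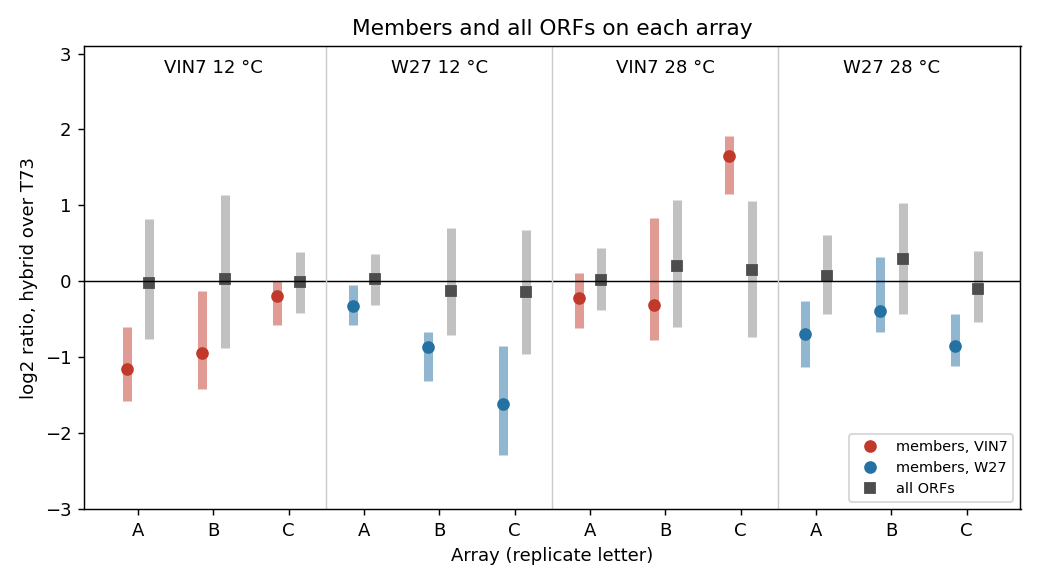
Log2 ratio of hybrid over T73 (y axis) on each of the 12 arrays (x axis, replicates A to C of VIN7 and W27 at 12 °C, then at 28 °C). Coloured points and bars give the median and the quartiles of the 33 proteasome genes, grey squares and bars those of all ORFs. The coloured median is under the grey one on 11 arrays and stands at 1.65 on replicate C of VIN7 at 28 °C.

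Averaged over the 3 arrays of a group, at 12 °C the median was −0.76 ± 0.51 in VIN7 and −0.93 ± 0.65 in W27 (SD, n = 3 each), or 1.69-fold and 1.91-fold lower than in T73. Without its replicate C the W27 median at 12 °C was −0.59. The 28 °C arrays of VIN7 gave 0.37 ± 1.11 and those of W27 −0.64 ± 0.24 (SD, n = 3 each), which for W27 is 1.56-fold lower. Replicate C set the spread in VIN7. With that array turned the median was −0.73 ± 0.79, and over replicates A and B alone −0.27 ± 0.07 (SD, n = 2).

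Replicates within a group had the same sign for most of the genes at 12 °C. In VIN7 at 12 °C, 20 of the 33 genes were below 0 on all 3 arrays, which is 60.6% of them, beside 21.8% of the 6056 ORFs with 3 values. None was above 0 on all 3, beside 21.4% of ORFs. In W27 at 12 °C, 25 of 33 (75.8%) were below 0 on all 3 arrays, beside 25.1% of 6082 ORFs. RPN2 alone was above 0 on all 3, beside 21.9% of ORFs. For W27 at 28 °C the count was 16 of 33 (48.5%), beside 14.6% of 5982 ORFs. Among the VIN7 arrays at 28 °C no gene of the 33 was below 0 on all 3, beside 13.3% of ORFs. On replicates A and B of that group 15 of 33 (45.5%) were below 0 on both, beside 25.7% of ORFs. In the same group PRE8, RPT2, RPT3 and RPN7 were above 0 on all 3 arrays, which is 12.1% of the genes beside 19.9% of ORFs. With replicate C turned 15 genes were below 0 on all 3 arrays, beside 12.5% of ORFs, and 0 above it, beside 12.6%.

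**Figure D2:**
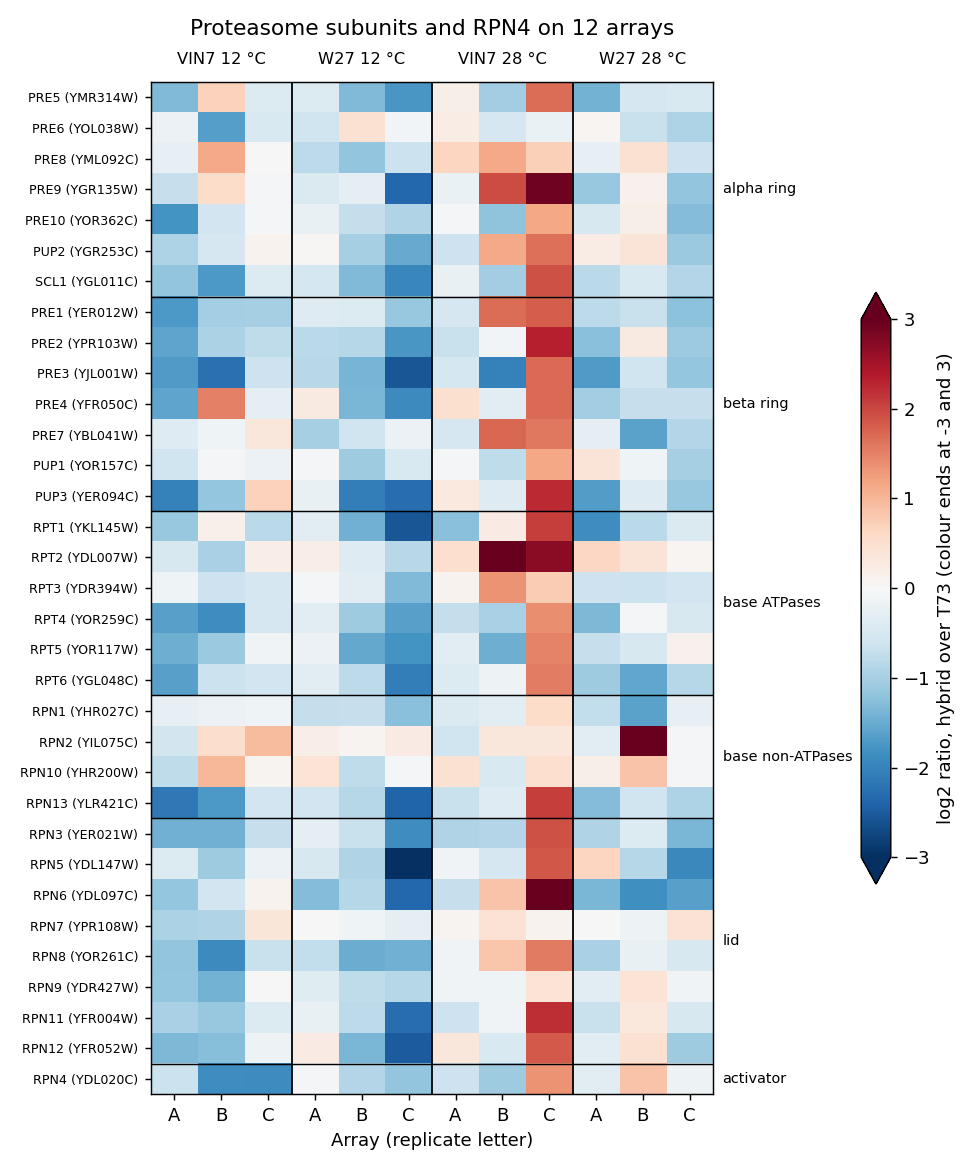
Log2 ratio of hybrid over T73 for each of the 33 genes (rows, by role) on each array (columns, replicates A to C in each of the 4 groups). Blue is lower and red higher in the hybrid, and colours end at −3 and 3. Replicate C of VIN7 at 28 °C is red in 32 rows, while RPN2, RPN7 and RPN10 stay pale on most arrays.

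No single gene passed the test in any group. Each group mean was tested against 0 with limma over all ORFs, and an adjusted p under 0.05 counted as passed. In VIN7 at 12 °C 0 of the 33 genes passed, beside 0.551% of ORFs. In W27 at 12 °C 0 of 33 passed, beside 0% of ORFs. At 28 °C 0 of 33 passed in VIN7, beside 0.0162% of ORFs, and 0 of 33 in W27, beside 0.0324%. The lowest limma adjusted p among the 33 genes at 12 °C was 0.138 in VIN7 and 0.315 in W27. At 28 °C it was 0.119 in VIN7 and 0.430 in W27.

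At an unadjusted limma p under 0.05, 9 of the 33 genes were below T73 in VIN7 at 12 °C, beside 9.15% of ORFs, and 15 of 33 in W27 at 12 °C, beside 7.19%. At 28 °C 4 of 33 were above T73 in VIN7, beside 10.1% of ORFs, and 3 of 33 below it in W27, beside 3.89%. With replicate C of VIN7 turned, 8 of 33 were below T73, beside 4.57%.

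The study's own rule was a median over the arrays of at least 2-fold, with no test. By it 12 of the 33 genes were down in VIN7 at 12 °C, beside 11.9% of ORFs, and 0 were up, beside 13.9%. These were PRE1, PRE3, PUP3, SCL1, RPT4, RPT5, RPN3, RPN4, RPN8, RPN9, RPN12 and RPN13. In W27 at 12 °C 12 were down, beside 11.2%, and 0 up, beside 10.6%. They were PRE3, PRE4, PRE5, PUP2, PUP3, SCL1, RPT1, RPT4, RPT5, RPN6, RPN8 and RPN12. The count in W27 at 12 °C was 4 without its replicate C and 20 without its replicate A (ORF shares not given).

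At 28 °C the rule picked fewer genes. In VIN7 0 were down, beside 5.48% of ORFs, and 5 were up, beside 11.3%, namely PRE1, PRE7, PRE9, PUP2 and RPT2. With replicate C turned 7 were down in VIN7, beside 5.9%, and 0 up. Without replicate C 1 gene was up, and without replicate A 11 were (ORF shares not given). In W27 6 were down, beside 6.08%, and 0 up, beside 7.76%. These were PRE2, PRE3, PRE9, PUP3, RPT6 and RPN6.

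**Figure D3:**
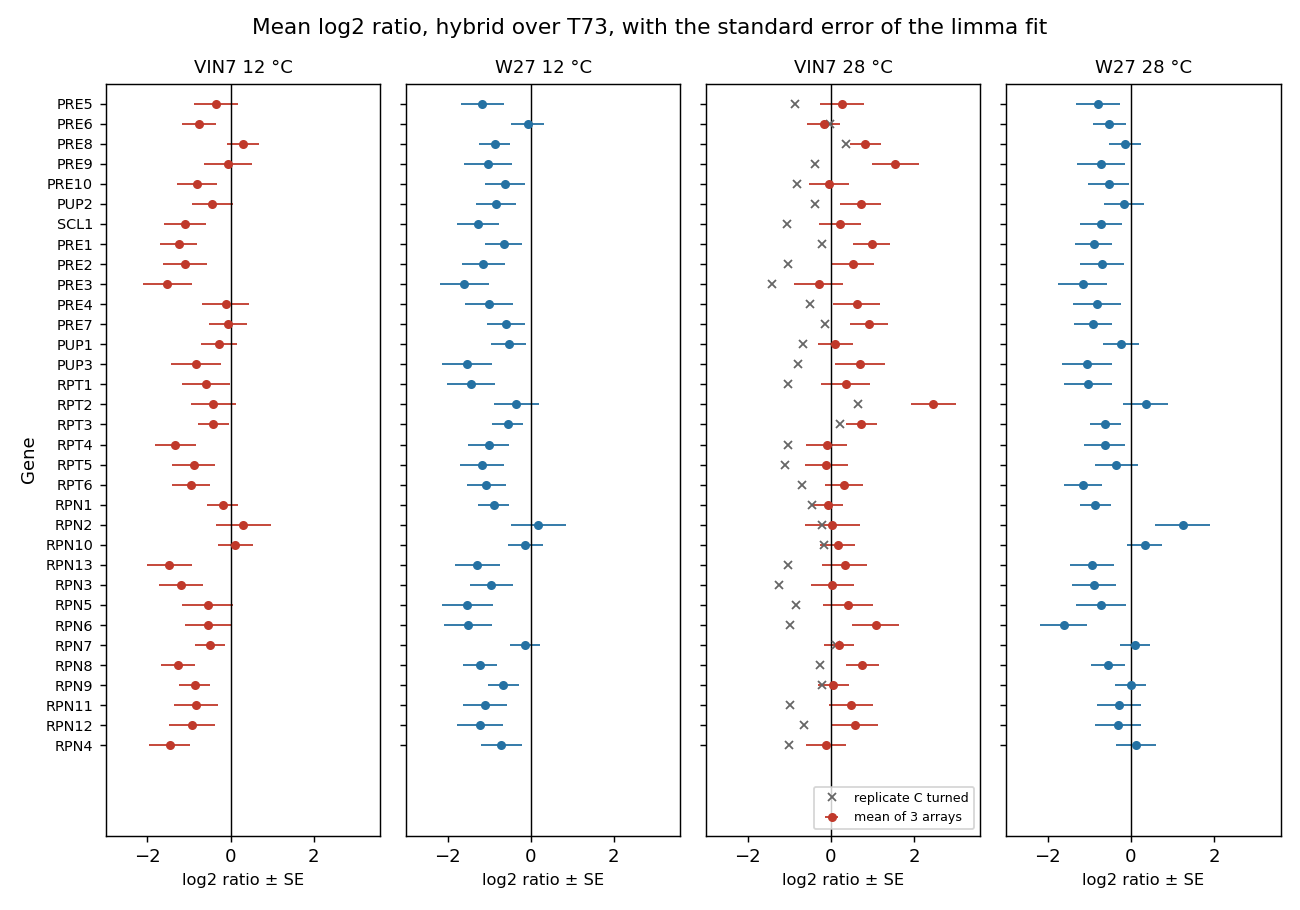
Mean log2 ratio of hybrid over T73 (x axis) for each of the 33 genes (y axis, by role) in each group, with bars for the standard error of the limma fit. Grey crosses give VIN7 at 28 °C with replicate C turned. In W27 at 12 °C 32 of 33 points are left of 0, beside 53.2% of ORFs, and in VIN7 at 12 °C 30, beside 48.4%. In VIN7 at 28 °C 7 are left of 0 as deposited, beside 41.3% of ORFs, and 29 as crosses, beside 46.1%.

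RPN4 (YDL020C) showed its lowest ratios in VIN7 at 12 °C, at −0.64, −1.85 and −1.89 on arrays A, B and C. On the W27 arrays at 12 °C it was at −0.04, −0.87 and −1.19. At 28 °C the values were −0.62, −1.07 and 1.36 in VIN7 and −0.32, 0.84 and −0.16 in W27. The activator was thus below T73 on all 6 arrays at 12 °C, with replicate A nearest to 0 in both hybrids, and had no common sign on the W27 arrays at 28 °C. On the VIN7 arrays at 28 °C it was of mixed sign as deposited and below 0 on all 3 with replicate C turned.

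The mean of RPN4 was −1.46 ± 0.71 in VIN7 at 12 °C (SD, n = 3, limma adjusted p = 0.140) and −0.70 ± 0.59 in W27 at 12 °C (SD, n = 3, limma adjusted p = 0.490). For VIN7 at 28 °C it was −0.11 ± 1.29 (limma adjusted p = 0.930), and −1.02 ± 0.37 with replicate C turned (limma adjusted p = 0.519). For W27 at 28 °C it was 0.12 ± 0.63 (limma adjusted p = 0.954), and −0.24 without its replicate B. RPN4 met the 2-fold rule in VIN7 at 12 °C and, only with replicate C turned (median −1.07), in VIN7 at 28 °C.

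The place of RPN4 among the 32 subunits differed between the hybrids' arrays. In VIN7 at 12 °C 23, 3 and 0 subunits lay below RPN4 on arrays A, B and C, so that on array C it was the lowest of the 33 genes. In W27 at 12 °C the counts were 24, 14 and 21. At 28 °C they were 7, 3 and 10 in VIN7 and 23, 30 and 26 in W27. RPN4 was therefore below most subunits on 5 of the 6 VIN7 arrays and above most of them on 5 of the 6 W27 arrays. With replicate C of VIN7 at 28 °C turned, 22 subunits lay below RPN4 on that array, and the VIN7 count was 4 of 6. Its difference between the hybrids did not pass the test at either temperature. VIN7 minus W27 was −0.76 at 12 °C and −0.23 at 28 °C, or −1.14 at 28 °C with replicate C of VIN7 turned.

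**Figure D4:**
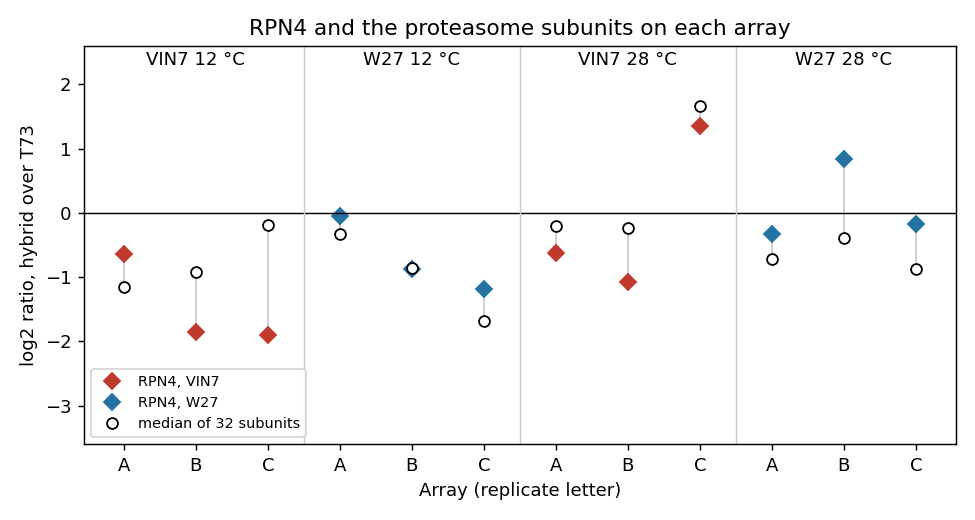
Log2 ratio of hybrid over T73 (y axis) of RPN4 (diamonds, red for VIN7 and blue for W27) and the median of the 32 subunits (open circles) on each array (x axis, replicates A to C by group). Diamonds are below the circles on 5 of 6 VIN7 arrays (4 of 6 with replicate C at 28 °C turned), and on W27 arrays they lie above them except on replicate B at 12 °C, where RPN4 is at −0.87 and the median at −0.86.

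Among the beta ring subunits, which carry the proteolytic sites, the mean of the array medians was −0.93 ± 0.65 in VIN7 at 12 °C and −1.07 ± 0.68 in W27 at 12 °C (SD, n = 3 each). At 28 °C it was 0.29 ± 1.22 in VIN7, or −0.84 ± 0.75 with replicate C turned, and −0.91 ± 0.27 in W27. All 7 beta genes had a mean below 0 in VIN7 at 12 °C, W27 at 12 °C and W27 at 28 °C. The shares of ORFs with a mean below 0 there were 48.4%, 53.2% and 40.3%.

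PRE3 (YJL001W), the subunit of the caspase-like site, had the lowest mean of the 33 genes in each hybrid at 12 °C. It was at −1.69, −2.24 and −0.63 in VIN7 at 12 °C and at −0.83, −1.40 and −2.57 in W27 at 12 °C. At 28 °C it was at −0.54, −2.03 and 1.70 in VIN7 and at −1.71, −0.60 and −1.17 in W27. All 9 values outside VIN7 at 28 °C were below 0, as were 2 of 3 within it. The means were −1.52 ± 0.82 in VIN7 at 12 °C (SD, n = 3, limma adjusted p = 0.177) and −1.60 ± 0.89 in W27 at 12 °C (SD, n = 3, limma adjusted p = 0.321).

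PRE1 (YER012W), a beta subunit without an active site, was at −1.71, −1.01 and −0.99 in VIN7 at 12 °C, with a mean of −1.24 ± 0.41 (SD, n = 3, limma adjusted p = 0.154). In W27 at 12 °C it was at −0.39, −0.41 and −1.14. At 28 °C it was at −0.51, 1.67 and 1.81 in VIN7 and at −0.78, −0.67 and −1.24 in W27. PRE1 was below 0 on every array but replicates B and C of VIN7 at 28 °C. PUP3 (YER094C), another subunit of the ring without a catalytic site, was at −2.03, −1.17 and 0.69 in VIN7 at 12 °C and at −0.23, −2.08 and −2.28 in W27 at 12 °C, so that in each hybrid 1 array stood apart from the other 2. At 28 °C PUP3 was at 0.30, −0.40 and 2.24 in VIN7 and at −1.67, −0.38 and −1.13 in W27.

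PRE2 (YPR103W), which holds the chymotrypsin-like site, was at −1.58, −0.94 and −0.76 in VIN7 at 12 °C and at −0.80, −0.86 and −1.75 in W27 at 12 °C, below 0 on all 6 arrays. At 28 °C it was at −0.66, −0.09 and 2.33 in VIN7 and at −1.25, 0.26 and −1.08 in W27. PUP1 (YOR157C), which holds the trypsin-like site, was nearer to 0, with means at 12 °C of −0.28 in VIN7 and −0.53 in W27, and at 28 °C of 0.11 in VIN7 (−0.67 with replicate C turned) and −0.24 in W27. The 3 catalytic genes therefore had unlike ratios, with PRE3 the lowest and PUP1 the closest to T73 in each of the 3 other groups beside VIN7 at 28 °C.

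The alpha ring genes were less far from T73 in VIN7 at 12 °C, at −0.49 ± 0.44, than the −0.99 ± 0.54 of W27 at 12 °C (mean of array medians, SD, n = 3 each). At 28 °C they were at 0.36 ± 1.14 in VIN7, or −0.74 ± 0.82 with replicate C turned, and at −0.42 ± 0.53 in W27. SCL1 (YGL011C), an outer ring subunit, was at −1.18, −1.73 and −0.40 in VIN7 at 12 °C and at −0.52, −1.33 and −1.96 in W27 at 12 °C. At 28 °C it was at −0.22, −1.04 and 1.92 in VIN7 and at −0.80, −0.45 and −0.89 in W27. It was below 0 on all arrays but replicate C of VIN7 at 28 °C.

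PRE8 (YML092C) was the alpha gene that differed most between the hybrids at 12 °C. It was at −0.25, 1.15 and 0.00 in VIN7 at 12 °C and at −0.79, −1.17 and −0.64 in W27 at 12 °C. At 28 °C it was at 0.64, 1.14 and 0.71 in VIN7, the only alpha gene above 0 on all 3 arrays there, and at −0.25, 0.46 and −0.63 in W27. The mean in VIN7 at 28 °C was 0.83 ± 0.27 (SD, n = 3, limma adjusted p = 0.351), and 0.36 with replicate C turned. PRE9 (YGR135W), which sits at the gate of the core, was at −0.19, 1.95 and 2.91 in VIN7 at 28 °C and at −1.13, 0.13 and −1.18 in W27 at 28 °C. PRE6 (YOL038W) was the only gene of the 33 below 0 on replicate C of VIN7 at 28 °C, at −0.21.

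The base ATPases had array medians averaging −0.87 ± 0.41 in VIN7 at 12 °C and −0.96 ± 0.73 in W27 at 12 °C (SD, n = 3 each). At 28 °C they averaged 0.39 ± 0.99 in VIN7, or −0.61 ± 0.80 with replicate C turned, and −0.63 ± 0.21 in W27. RPT4 (YOR259C) was at −1.63, −1.87 and −0.50 in VIN7 at 12 °C and at −0.34, −1.07 and −1.62 in W27 at 12 °C. RPT6 (YGL048C) was at −1.06, −1.55 and −0.86 in W27 at 28 °C, a mean of −1.15 ± 0.36 (SD, n = 3, limma adjusted p = 0.465). The VIN7 values of RPT6 at 28 °C were −0.41, −0.16 and 1.54.

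RPT2 (YDL007W), the ATPase whose tail helps to open the gate of the core, went the other way. In VIN7 at 28 °C it was at 0.50, 4.20 and 2.70, the highest mean of the 33 genes there, at 2.47 ± 1.86 (SD, n = 3, limma adjusted p = 0.119). With replicate C turned that mean was 0.67. Without replicate A it was 3.45 (limma adjusted p = 0.0354), which rested on arrays B and C as deposited, and the direction of C is not settled. The W27 values of RPT2 at 28 °C were 0.63, 0.40 and 0.05, above 0 on all 3 arrays. In VIN7 at 12 °C it was at −0.47, −0.96 and 0.19, and in W27 at 12 °C at 0.20, −0.39 and −0.84, so that its values straddled 0 at 12 °C. RPT3 (YDR394W) was also above 0 on all arrays of VIN7 at 28 °C, at 0.11, 1.34 and 0.76, with a mean of 0.74 ± 0.62 (SD, n = 3, limma adjusted p = 0.385) and of 0.23 with replicate C turned. The W27 values of RPT3 at 28 °C were −0.63, −0.66 and −0.57.

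The other base subunits had, of the roles of the subunits, the averages closest to T73 in all 4 groups as deposited, but in VIN7 at 28 °C without replicate C they were the farthest from it, at −0.44, against −0.41 for the beta ring and −0.11 for the lid. Their array medians at 12 °C averaged −0.17 ± 0.43 in VIN7 and −0.52 ± 0.29 in W27. At 28 °C they averaged −0.11 ± 0.56 in VIN7 and −0.18 ± 0.33 in W27 (SD, n = 3 each). With replicate C turned, VIN7 at 28 °C was at −0.47 ± 0.09. The 4 genes were not alike. RPN13 (YLR421C), a ubiquitin receptor, was at −2.14, −1.71 and −0.57 in VIN7 at 12 °C and at −0.58, −0.86 and −2.41 in W27 at 12 °C. RPN10 (YHR200W), another ubiquitin receptor, was at −0.76, 1.00 and 0.09 in VIN7 at 12 °C and at 0.41, −0.77 and −0.03 in W27 at 12 °C, on both sides of 0.

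RPN1 (YHR027C) and RPN2 (YIL075C) are the large scaffold subunits of the base. RPN1 was at −0.24, −0.17 and −0.14 in VIN7 at 12 °C and at −0.72, −0.69 and −1.25 in W27 at 12 °C, below 0 on all 6 arrays. In W27 at 28 °C RPN1 had a mean of −0.86 ± 0.70 (SD, n = 3, limma adjusted p = 0.465). RPN2 had the highest mean of the 33 genes in VIN7 at 12 °C (0.31 ± 0.78), W27 at 12 °C (0.18 ± 0.08) and W27 at 28 °C (1.25 ± 2.49). The last of these rested on 1 array, with RPN2 at −0.33, 4.12 and −0.04 on W27 arrays A, B and C at 28 °C, and the mean was −0.18 without array B. In VIN7 at 12 °C the mean of RPN2 was −0.02 without replicate C.

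The lid, which holds the deubiquitinase RPN11, had array medians averaging −0.85 ± 0.58 in VIN7 at 12 °C and −1.08 ± 0.90 in W27 at 12 °C (SD, n = 3 each). At 28 °C they averaged 0.55 ± 1.13 in VIN7, or −0.69 ± 1.01 with replicate C turned, and −0.49 ± 0.29 in W27. RPN8 (YOR261C), the partner of RPN11, had the lowest unadjusted p of the 33 genes in each hybrid at 12 °C. It was at −1.19, −1.92 and −0.67 in VIN7 at 12 °C, a mean of −1.26 ± 0.63 (SD, n = 3, limma adjusted p = 0.138), and at −0.73, −1.49 and −1.44 in W27 at 12 °C, a mean of −1.22 ± 0.42 (SD, n = 3, limma adjusted p = 0.315). At 28 °C RPN8 was at −0.10, 0.84 and 1.55 in VIN7 and at −0.96, −0.23 and −0.47 in W27.

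RPN6 (YDL097C), a lid subunit that clamps the lid to the core and base, was below T73 on every W27 array. It was at −1.30, −0.86 and −2.36 in W27 at 12 °C, a mean of −1.51 ± 0.77 (SD, n = 3, limma adjusted p = 0.321). In W27 at 28 °C it was at −1.38, −1.83 and −1.64, a mean of −1.62 ± 0.23 (SD, n = 3, limma adjusted p = 0.430). In VIN7 RPN6 was at −1.16, −0.56 and 0.12 at 12 °C and at −0.70, 0.85 and 3.09 at 28 °C, so its values spread widely. RPN11 (YFR004W) was at −0.96, −1.15 and −0.40 in VIN7 at 12 °C and at −0.23, −0.78 and −2.28 in W27 at 12 °C. RPN7 (YPR108W) stayed close to T73 in W27, between −0.28 and 0.45 on its 6 arrays. The lid gene RPN5 (YDL147W) held the lowest single value of the 33 genes, −3.17 on replicate C of W27 at 12 °C, while its other W27 values at 12 °C were −0.47 and −0.91.

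The other 10 genes, PRE4, PRE5, PRE7, PRE10, PUP2, RPT1, RPT5, RPN3, RPN9 and RPN12, had group means below 0 in VIN7 at 12 °C and in W27 at either temperature. At 12 °C the means of these genes ran from −1.19 (RPN3) to −0.05 (PRE7) in VIN7 and from −1.44 (RPT1) to −0.59 (PRE7) in W27. At 28 °C they ran from −0.11 (RPT5) to 0.93 (PRE7) in VIN7, or from −1.24 (RPN3) to −0.13 (PRE7) with replicate C turned. In W27 the range at 28 °C was −1.03 (RPT1) to −0.008 (RPN9). PRE7, a beta subunit, stood at the upper end in VIN7 at either temperature and in W27 at 12 °C.

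**Figure D5:**
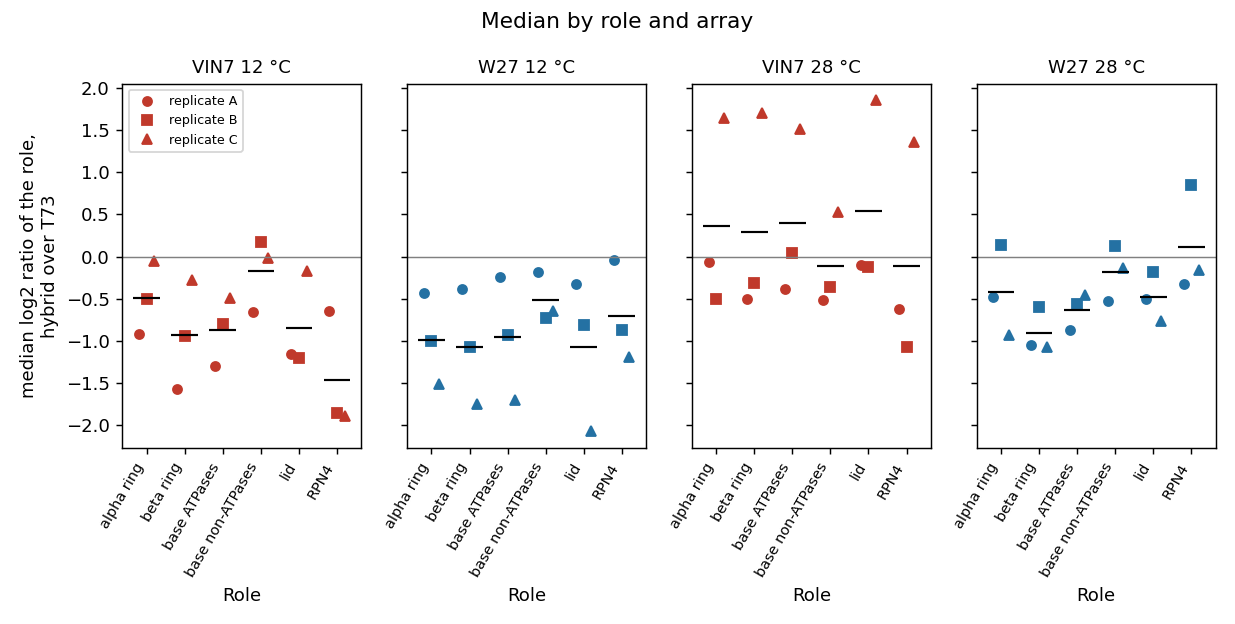
Median log2 ratio of hybrid over T73 (y axis) for each role of the proteasome (x axis) in the 4 groups, with a symbol for each replicate and a black line for the mean of the 3 arrays. RPN4 is a single gene. The lines of the base subunits that are not ATPases are nearest to 0 among the subunits, which in VIN7 at 28 °C rests on replicate C, and the triangles of VIN7 at 28 °C stand apart from its other symbols in every role.

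Between the hybrids no gene passed the test. For VIN7 minus W27 at 12 °C 0 of 33 genes passed the limma test, beside 0% of ORFs, and the lowest limma adjusted p was 1.00. The median difference of the 33 genes was 0.17, against 0.07 for all ORFs, and it lay between −0.18 and 0.49 when single arrays were left out. At an unadjusted p under 0.05 1 of 33 was higher in VIN7, beside 1.51% of ORFs. This was PRE8, with a difference of 1.17 (SE 0.54), followed by RPN1 at 0.71 (SE 0.53).

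At 28 °C 0 of 33 genes passed for VIN7 minus W27, beside 0% of ORFs, with a lowest limma adjusted p of 0.531. At an unadjusted p under 0.05 8 of 33 were higher in VIN7, beside 5.97% of ORFs. With replicate C of VIN7 turned 0 of 33 were, beside 51 of 6162 ORFs. The median difference was 0.93 as deposited, −0.10 with replicate C turned and 0.37 without it. RPN6 differed most by p, at 2.70 (SE 0.80, limma adjusted p = 0.531), and PRE1 came next, at 1.89 (SE 0.63, limma adjusted p = 0.541). With replicate C turned these differences were 0.64 and 0.68.

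The difference of 12 °C minus 28 °C within a hybrid holds any change of T73 itself, since T73 RNA of each temperature was the partner. In VIN7 0 of 33 genes passed, beside 0% of ORFs, with a lowest limma adjusted p of 0.175. At an unadjusted p under 0.05 6 of 33 were lower at 12 °C, beside 11.1% of ORFs. With replicate C turned 0 of 33 were, beside 157 of 6158 ORFs. The median difference was −1.16 as deposited, −0.06 with that array turned and −0.61 without it. RPT2 had a difference of −2.88 (SE 0.77, limma adjusted p = 0.175) and PRE1 one of −2.23 (SE 0.63, limma adjusted p = 0.175), against −1.08 and −1.02 with replicate C turned.

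In W27 0 of 33 genes passed for 12 °C minus 28 °C, beside 0% of ORFs. The lowest limma adjusted p was 0.789. None of the 33 had an unadjusted p under 0.05, beside 230 ORFs lower and 120 higher at 12 °C, of 6169. The median difference was −0.41, against −0.19 for all ORFs, and it was −0.06 after each array was recentred and scaled to the same spread and −0.07 without replicate C at 12 °C. The genes with the lowest p were PRE8 at −0.73 and RPN9 at −0.65. For the interaction, in which the temperature difference of W27 was subtracted from that of VIN7, 0 of 33 passed, beside 0% of ORFs. At an unadjusted p under 0.05 1 of 33 was lower, beside 1.76% of ORFs. This was PRE1, at −2.48 (SE 0.89, limma adjusted p = 0.925), and RPT2 came next at −2.18 (SE 1.09). With replicate C of VIN7 at 28 °C turned, 0 of 33 had an unadjusted p under 0.05, beside 46 ORFs lower and 85 higher, of 6149. PRE1 was then at −1.27 and RPT2 at −0.38. The median interaction of the 33 genes was −0.69 as deposited, 0.37 with that array turned and −0.09 without it.

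The genes are spread over 13 of the yeast chromosomes by their systematic names. The study names certain chromosomes of W27 as chimeric. On these lie 16 of the genes, and their median of the group means was −0.68 at 12 °C and −0.55 at 28 °C. The other 17 were at −1.06 at 12 °C and −0.73 at 28 °C. The study names chromosomes III and VII as those where VIN7 departs from a regular allotriploid. In VIN7, 4 genes lie on chromosome VII and none on III. Their median was −0.69 at 12 °C and 0.52 at 28 °C, against −0.76 and 0.34 for the other 29. With replicate C turned the 28 °C medians were −0.54 and −0.67. No test was made of these differences, and the allele makeup of single genes was not analysed here.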

How the data were processed

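The values deposited by the authors are log2 ratios, likely T73 over hybrid, and their sign was turned here. Arrays of S288c ORFs had been scanned in GenePix with global background subtraction, then normalized singly in Acuity, cleared of spots not found and corrected manually for print tip effects. Signal over background is unknown, as spot intensities were not analysed here. Precision is limited by the 3 arrays per group. Every column was matched to an array by its label.

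All 6178 ORFs were fitted in 1 model with 4 group means (lmFit and eBayes of limma 3.58.1, under R 4.3.3), and p-values were adjusted by Benjamini-Hochberg over all ORFs. The fit was tested on simulated data. The 2-fold rule took a value on at least 2 arrays and the median over arrays. Plots used matplotlib 3.10.9 and pandas 2.3.3 (Python 3.11.15). Alternatives were recentring and scaling of arrays, quantile limits at 0.1% and 99.9%, a replicate block, a robust prior, array weights, only the arrays compared, a threshold of 1.5-fold, turning replicate C of VIN7 at 28 °C and leaving out each array.

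The members and lists were chosen with earlier results of these data known. The deposited table gives systematic names only, and symbols follow the order of the list by which the genes were chosen. Named genes were RPN4 and, per group, the 3 of the same sign on all arrays with the lowest p and the highest and lowest mean, and, per contrast, the 2 with the lowest p. PUP3, PRE2, PUP1, SCL1, PRE9, PRE6, RPT4, RPN13, RPN10, RPN11, RPN7 and RPN5 were added after their values were seen, to describe each role. Assembly factors, ubiquitin genes, regulators of RPN4 and promoter or protein sequences were not analysed here. Letters A to C were checked as pairs by the correlation of deviations from the group means across ORFs. Over 18 same-letter pairs r lay between −0.44 and 0.57, where both ends hold replicate C of VIN7 at 28 °C as deposited. Every letter was over 0.1 only between VIN7 at 12 °C and VIN7 at 28 °C (0.31, 0.22 and 0.57). The reported differences, standard errors and p-values were fitted without pairs. Only the alternative with a replicate block took the letters as pairs, from the data alone.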

Additional observations from a re-analysis of the deposited data

Results flagged for a closer look

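RPT3 (YDR394W), a base ATPase, was picked out because all 3 arrays of VIN7 at 28 °C were above 0 and all 3 of W27 at 28 °C below it. The difference of VIN7 minus W27 at 28 °C was 1.36, with a limma adjusted p of 0.547, and 0.85 with replicate C of VIN7 turned. RPT3 was also picked out in VIN7 because all arrays at 12 °C were below 0 and all at 28 °C above it. The difference of 12 °C minus 28 °C was −1.15, with a limma adjusted p of 0.249, and −0.64 with replicate C turned. Either pattern of signs ends when that array is turned.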

How the results depend on the processing

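The counts of genes called by limma were 0 in all comparisons and under all alternatives run but 2: array weights called 5 genes in W27 at 12 °C (PUP3, SCL1, PRE3, RPT5 and RPN8, with limma adjusted p between 0.0328 and 0.0486), and leaving out replicate A called 1 in VIN7 at 28 °C (RPT2, range 0 to 1 over the arrays left out). The share of all ORFs called in these 2 alternatives is not given here. These calls are thus not read as particular to the proteasome genes. The call of RPT2 rested on replicates B and C of VIN7 at 28 °C as deposited, and the direction of C is not settled. The replicate block called 0 genes in every comparison, also with only the arrays compared.

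The median in VIN7 at 28 °C was −0.73 with replicate C turned, −0.22 as a median over arrays, and −0.27 to 0.71 when 1 array was left out. The median difference of VIN7 minus W27 at 12 °C was −0.18 without W27 replicate C and −0.10 without VIN7 replicate C (range −0.18 to 0.49). At 28 °C it was −0.10 with the turned array, and the interaction was 0.37.

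By the threshold of 1.5-fold, 3 genes were down and 9 up in VIN7 at 28 °C, and 24 were down in W27 at 12 °C and 17 at 28 °C. Scaling gave 3 up in VIN7 at 28 °C, and 11 down in W27. The mean in place of the median gave 3 up for VIN7 at 28 °C, and 1 for W27. The turned array gave 7 down and 0 up in VIN7 at 28 °C. Leaving out 1 array gave 4 to 20 down in W27 at 12 °C. At 28 °C it gave 0 to 1 down and 1 to 11 up in VIN7, and 0 to 1 up in W27. The share of all ORFs under these alternatives is not given here. The counts thus show only how the number of genes picked moved with the processing.

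Of 439 alternatives for 35 values of named genes, 13 turned the sign, in 7 of the values. RPN2 in VIN7 at 12 °C was −0.018 to 0.74 over the arrays left out (lowest without C), and in W27 at 28 °C −0.18 to 2.04 (lowest without B). RPN4 in W27 at 28 °C was −0.031 after scaling, −0.11 with array weights and −0.24 to 0.34 over the arrays left out (lowest without B). In VIN7 at 28 °C, RPN4 was −0.85 to 0.37 and PRE3 −1.28 to 0.58 over the arrays left out, highest without B. RPN4 in VIN7 minus W27 at 28 °C was −0.96 to 0.25, above 0 without W27 B, VIN7 A or VIN7 B. Its interaction was 0.37 with the turned array, and −1.01 to 0.20 over the arrays left out (highest without VIN7 C at 28 °C). The cause was not tested. Spot intensities were not analysed here, so how far signal over background limits single genes is unknown.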
